A study of Homo sapiens with 6 samples.

Results

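The retinoblastoma (RB) pocket proteins and the E2F transcription factors were described at the RNA level in A549, a lung adenocarcinoma cell line. The members were chosen by name, with earlier results of these data known, and E2F6 was left out. They were RB1, RBL1 and RBL2 (the pocket proteins) and E2F1, E2F2, E2F3, E2F4, E2F5, E2F7 and E2F8. These are 10 of the 23180 gene symbols in the deposited table, and where a symbol had several transcripts, the one with most counts over the 6 samples was read. The study used wild-type A549 cells at passage 11, transfected with 65 nM of a control siRNA (siControl) or of an siRNA against KMT9α (siKMT9α), and harvested 3 days later. KMT9α is encoded by N6AMT1 and forms, with its partner TRMT112, a histone H4 methyltransferase named KMT9. Total RNA of 3 samples per group was sequenced. The labels call them biological replicates and do not say that they came from separate cultures, so the p-values measure only the spread between these samples. One cell line and one siRNA against KMT9α stand behind every comparison, so an effect of loss of KMT9α and another effect of that siRNA cannot be told apart.

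E2F factors bind the promoters of genes needed for DNA replication and mitosis, and most do so as dimers with a DP protein. In resting and early G1 cells the pocket proteins hold them in check: RB1 mainly binds the activators E2F1, E2F2 and E2F3, while RBL1 (p107) and RBL2 (p130) mainly bind E2F4 and E2F5 and form the repressive DREAM complex with the MuvB core. Cyclin-dependent kinases phosphorylate the pocket proteins and free the E2F factors, whereas E2F7 and E2F8, called atypical, repress without DP or pocket proteins. In lung cancer this pathway is often disturbed, by loss of RB1 in small cell tumors and by loss of the CDK4/6 inhibitor CDKN2A in adenocarcinoma, and A549 is a line known to lack CDKN2A.

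The depth was 15551778 to 18568640 estimated counts per siControl sample and 13740097 to 19832396 per siKMT9α sample, counting 1 transcript per gene. N6AMT1 was measured at 10.2, 10.9 and 11.4 CPM (counts scaled to a common library size and by TMM factors) in siControl and at 2.87, 3.22 and 3.35 CPM in siKMT9α, a log2 fold change of -1.77 with a standard error (SE) of 0.12 (edgeR quasi-likelihood test, adjusted p = 1.43e-10). The groups did not overlap. TRMT112 stood at 173.8 ± 11.5 and 133.7 ± 13.4 CPM (mean ± SD, n = 3 each). Of the epithelial markers, KRT8, KRT18 and KRT7 were abundant, and KRT19 was lower (means of 57.6 CPM in siControl and 35.9 CPM in siKMT9α). EPCAM (3.85 and 0.572 CPM) and CDH1 (3.38 and 8.6 CPM) were low. The summed level of the 6 markers, nearly all of it keratins, was 4401.8 to 4885.6 CPM in siControl and 2943.1 to 3130.3 CPM in siKMT9α. The 7 alveolar type II markers summed to at most 6.27 CPM, with SFTPA1 at 0, the 6 fibroblast markers to at most 8.71 CPM, with COL1A2 at 0, and the 4 endothelial markers to at most 1.05 CPM. The 5 leukocyte markers summed to 81.4 to 88.3 CPM and 28.9 to 30.2 CPM, nearly all of it CD68, while the T cell marker CD3E was at 0. In RNA from bulk cells, fewer cells in a phase of the cell cycle and less RNA per cell cannot be told apart.

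All 10 members were measured above the filter on low counts, and all 10 had an adjusted p under 0.05, 7 of them higher and 3 lower upon KMT9α knock-down. Of all 13877 genes tested, 75.6% had an adjusted p under 0.05, with 37.1% higher and 38.5% lower, so that a call alone does not set a gene apart in this comparison. The study's stricter threshold was an unadjusted p below 1e-08 with an absolute log2 fold change above 0.26. In this fit it was passed by 5 members, all higher, and by 3357 genes (24.2%), 13.5% higher and 10.7% lower. The study reported more differentially expressed genes from its own edgeR comparison, whose calls were not read. A member that failed the threshold here may therefore have passed it there. No siKMT9α sample fell within the siControl range, or the reverse, for 10 of 10 members and for 77.0% of all genes. The exact two-sided permutation test gave p = 0.1 for each member, which is the smallest p that 3 against 3 samples allow. The median absolute log2 fold change was 1.05 over the members and 0.47 over all genes tested.

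**Figure D1:**
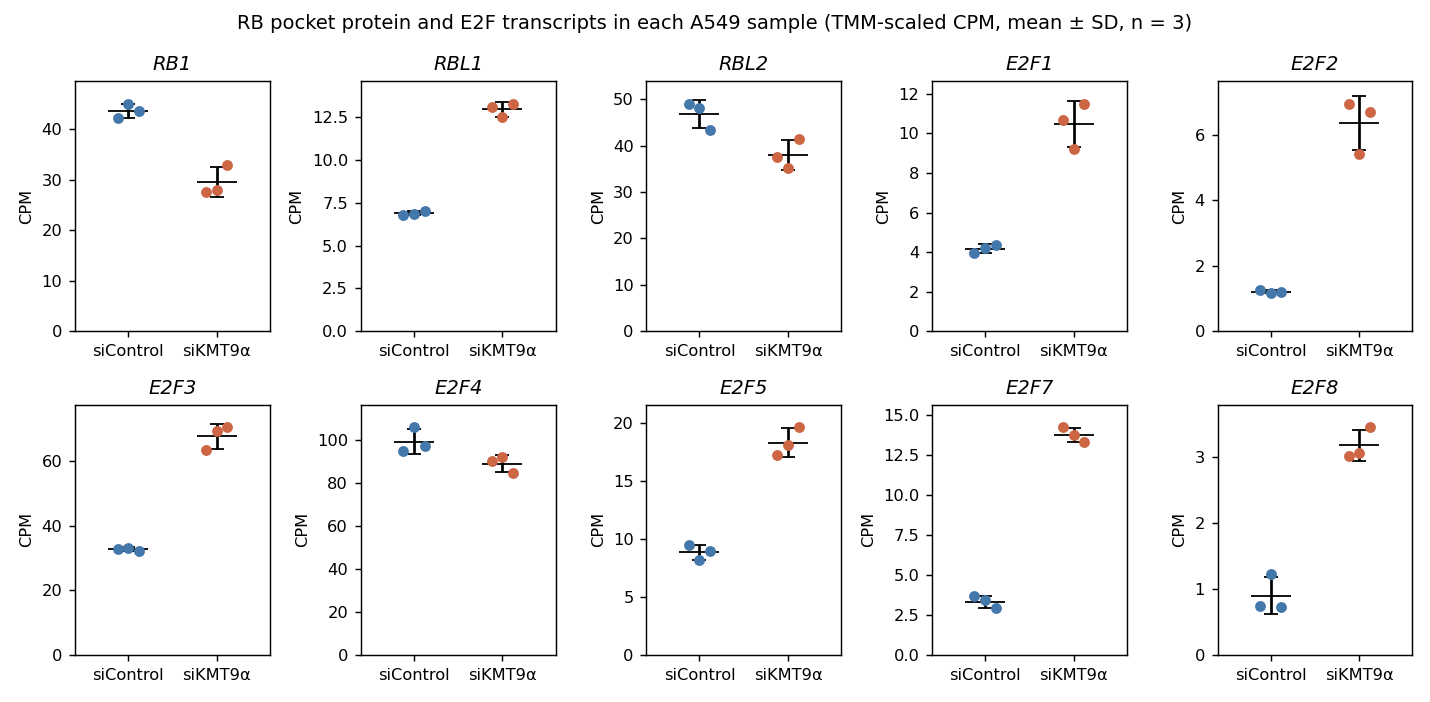
TMM-scaled CPM (y axis, starting at 0, with its own range for each gene) of the 10 members in each sample, with siControl in blue and siKMT9α in orange; horizontal bars are means and whiskers the SD of 3 samples. The groups are apart for every member, with 7 genes higher and RB1, RBL2 and E2F4 lower in siKMT9α.

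Before the values, the start of 5 members is shown, because several E2F and pocket protein genes carry E2F letters there themselves. The letters searched were the E2F motifs TTTCGCGC, TTTGGCGC, TTTCCCGC and TTTGCCGC, and the cell cycle genes homology region (CHR) motifs TTTGAA and TTCGAA, on both strands, and no match overlapped another. RefSeq promoter windows of GRCh38.p14, from 250 bases before to 50 bases after a start, matched 8 members. The window of RB1 begins inside the gene and was not used, and E2F5 and E2F8 had no entry. Of 35116 windows in the RefSeq table, 3.31% held an E2F motif and 16.4% a CHR motif. The last 150 bases before the start are printed 5′ to 3′ on the strand of the gene, with matches in capitals, for E2F1 (chr20:33686386-33686535, minus strand), E2F2 (chr1:23531234-23531383, minus strand), E2F3 at the start of its longer form E2F3a (chr6:20401729-20401878, plus strand), RBL1 (chr20:37095998-37096147, minus strand) and, for contrast, RBL2 (chr16:53434321-53434470, plus strand).
E2F1: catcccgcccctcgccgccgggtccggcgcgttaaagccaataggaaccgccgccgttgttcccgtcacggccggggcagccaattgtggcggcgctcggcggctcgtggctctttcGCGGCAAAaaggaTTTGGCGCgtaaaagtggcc
E2F2: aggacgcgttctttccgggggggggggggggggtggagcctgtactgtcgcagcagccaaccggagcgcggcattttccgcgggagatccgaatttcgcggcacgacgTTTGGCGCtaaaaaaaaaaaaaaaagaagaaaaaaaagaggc
E2F3: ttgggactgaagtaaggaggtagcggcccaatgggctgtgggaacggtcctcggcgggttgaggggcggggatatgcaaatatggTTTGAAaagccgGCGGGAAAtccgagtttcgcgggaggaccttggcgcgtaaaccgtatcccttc
RBL1: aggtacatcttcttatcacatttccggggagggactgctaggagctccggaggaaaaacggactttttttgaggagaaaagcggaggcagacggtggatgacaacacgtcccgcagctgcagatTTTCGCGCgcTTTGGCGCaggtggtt
RBL2: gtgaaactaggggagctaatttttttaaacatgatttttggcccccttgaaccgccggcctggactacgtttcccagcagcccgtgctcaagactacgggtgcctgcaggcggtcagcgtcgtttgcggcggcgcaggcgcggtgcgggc
In E2F1 the matches lay at bases -33 to -26 (TTTGCCGC on the opposite strand) and -20 to -13 (TTTGGCGC), counted from the start base as 0. RBL1 also held a pair, TTTCGCGC at -26 to -19 and TTTGGCGC at -16 to -9. E2F2 held TTTGGCGC at -42 to -35. E2F3 held TTTCCCGC on the opposite strand at -53 to -46 and the CHR letters TTTGAA at -65 to -60. No E2F letters were found in the windows of E2F4, E2F7, RBL2 or the second start of E2F3, and RBL2 held TTTGAA after its start, at 24 to 29.

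**Figure D2:**
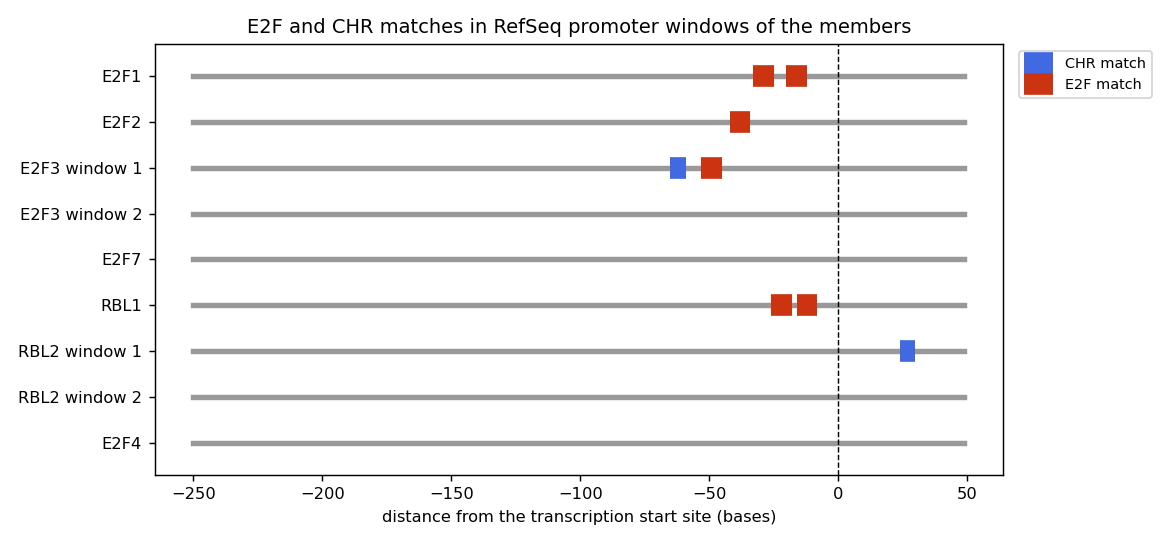
Position of E2F matches (red) and CHR matches (blue) in the RefSeq promoter windows of 7 members, with distance from the transcription start in bases on the x axis and one grey line per window. E2F1 and RBL1 hold a pair of E2F matches close to the start, E2F2 and the first E2F3 window hold 1 each, and 5 windows hold no E2F match.

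Among the pocket proteins, the founding tumor suppressor RB1 fell while RBL1 rose. RB1 (NM_000321, hg19 chr13:48877883-49056026, plus strand, 27 exons) was measured at 42.3, 45.1 and 43.7 CPM in siControl and at 27.7, 28.1 and 33 CPM in siKMT9α. The third siKMT9α sample was the highest of its group, and the groups did not overlap. The log2 fold change was -0.55 (SE 0.07, adjusted p = 7.4e-07), a 1.46-fold lower level, and 22.2% of all genes tested fell by more. LPAR6 lies within the span of RB1 and shared no exon bases with it.

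RBL1 (p107; NM_002895, chr20:35626178-35724410, minus strand), a pocket protein gene with E2F letters at its own start as printed above, was measured at 6.8, 6.85 and 7.02 CPM in siControl and at 13.1, 12.5 and 13.3 CPM in siKMT9α. Each siKMT9α sample lay above every siControl sample, and the spread within either group was small beside the gap. RBL1 changed by 0.91 on the log2 scale (SE 0.10, adjusted p = 6.44e-08), or 1.88-fold. The unadjusted p of this quasi-likelihood fit was 1.64e-08, just outside the study's threshold. The shorter RBL1 transcript NM_183404 shares most of its counts with the longer one and changed by 0.83 (SE 0.12, adjusted p = 2.66e-06 over all transcripts).

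RBL2 (p130; NM_005611, chr16:53468351-53525560, plus strand, 22 exons), the pocket protein most tied to quiescence, was measured at 49, 48.1 and 43.3 CPM in siControl and at 37.5, 35.1 and 41.5 CPM in siKMT9α. The lowest siControl sample and the highest siKMT9α sample were close, without overlap. The log2 fold change was -0.29 (SE 0.07, adjusted p = 0.000904), and -0.49 (SE 0.06) with an offset for GC content and length. Of the 4854 bases of the matched RBL2 transcript, 609 are also exon bases of AKTIP on the opposite strand. AKTIP went from 55.3 ± 2.62 to 21.6 ± 3.14 CPM (log2 fold change -1.34, adjusted p = 1.29e-11). Whether counting used the strand is not given in the sources used here, and the part of AKTIP reads in the RBL2 value was not tested.

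The activators E2F1, E2F2 and E2F3, which drive entry into S phase, all rose. E2F1 (NM_005225, chr20:32263292-32274210, minus strand, 7 exons) was measured at 3.93, 4.2 and 4.37 CPM in siControl and at 10.7, 9.21 and 11.5 CPM in siKMT9α. The lowest siKMT9α sample was still above the highest siControl sample by more than the range of either group. E2F1 rose by 1.34 on the log2 scale (SE 0.12, adjusted p = 7.52e-09), or 2.53-fold.

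E2F2 (NM_004091, chr1:23832920-23857712, minus strand, 7 exons) was among the scarcest members in siControl, at 1.27, 1.17 and 1.2 CPM, and reached 6.95, 5.41 and 6.7 CPM in siKMT9α. The siKMT9α samples were spread more widely than the siControl samples and were far from them. E2F2 rose by 2.38 on the log2 scale (SE 0.17, adjusted p = 2.81e-10), or 5.22-fold, and 0.814% of all genes tested rose by more.

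E2F3 (NM_001949, chr6:20402137-20493945, plus strand, 7 exons) was the most abundant activator, at 32.8, 33.1 and 32 CPM in siControl and at 63.2, 69.3 and 70.3 CPM in siKMT9α. The siControl samples were nearly equal, and the groups were well apart. The log2 fold change was 1.05 (SE 0.06, adjusted p = 4.85e-12), or 2.07-fold, and 0.79 (SE 0.05) with an offset for GC content and length. E2F3 is made from 2 starts, as E2F3a (NM_001949) and as the shorter E2F3b (NM_001243076), and both transcripts changed by 1.05. They cannot be read apart, because E2F3b held 98.7% to 99.8% of the counts of E2F3a in each sample. E2F3a is 708 bases longer, yet nearly all of its counts were shared with E2F3b. The level given for E2F3 thus rests almost wholly on shared counts, and which form they came from was not tested. The counts that E2F3a held beyond E2F3b were 1.5, 2.0 and 2.5 in siControl and 10.5, 6.5 and 9.5 in siKMT9α, too few for a level of the E2F3a form.

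E2F4 and E2F5, the repressors that work with the pocket proteins in resting cells, moved in opposite directions. E2F4 (NM_001950, chr16:67226068-67232821, plus strand, 10 exons) was measured at 94.9, 105.8 and 97 CPM in siControl and at 90.2, 92.2 and 84.4 CPM in siKMT9α. The groups were close, and the gap between them was smaller than the range of either. The log2 fold change was -0.16 (SE 0.05, adjusted p = 0.0128). The call was lost with an offset for GC content and length (-0.02, adjusted p = 0.737), without siControl replicate 2 (-0.10, adjusted p = 0.126) and without siKMT9α replicate 3 (-0.12, adjusted p = 0.0631), so that the difference depends on the processing and on single samples.

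E2F5 (NM_001083588, chr8:86089619-86126753, plus strand, 8 exons) was measured at 9.45, 8.15 and 8.94 CPM in siControl and at 17.2, 18.1 and 19.6 CPM in siKMT9α. The groups were well apart. The log2 fold change was 1.05 (SE 0.09, adjusted p = 4.52e-09), or 2.07-fold, and its other 2 transcripts changed by 1.06 and 1.05. Its matched transcript of 1890 bases shares 471 with RBIS on the opposite strand, listed in the table as C8orf59, which went from 39.9 ± 1.95 to 31 ± 1.81 CPM. The part of those reads in the E2F5 value was not tested. In the fit of all transcripts, 76.3% of 24770 transcripts had an adjusted p under 0.05, as did the 14 transcripts of the members.

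The atypical E2F7 and E2F8, which are known as E2F targets and repress E2F1 in turn, were low in siControl and rose. E2F7 (NM_203394, chr12:77415026-77459360, minus strand, 13 exons) was measured at 3.66, 3.4 and 2.91 CPM in siControl and at 14.2, 13.7 and 13.3 CPM in siKMT9α. The difference was many times the range of either group. E2F7 rose by 2.04 on the log2 scale (SE 0.12, adjusted p = 6.63e-12), or 4.12-fold, and 1.5% of all genes tested rose by more.

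E2F8 (NM_024680, chr11:19245610-19262507, minus strand, 13 exons) rested on the fewest reads, with 14.5, 19.5 and 13.5 estimated counts in siControl and 39.5, 42 and 66 in siKMT9α. These correspond to 0.743, 1.23 and 0.728 CPM and to 3.02, 3.07 and 3.45 CPM. The groups did not overlap, although the second siControl sample stood above the other two. This gave a log2 fold change of 1.85 (SE 0.22, adjusted p = 3.78e-07), with the largest SE among the members. In this fit E2F8 did not pass the study's threshold.

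**Figure D3:**
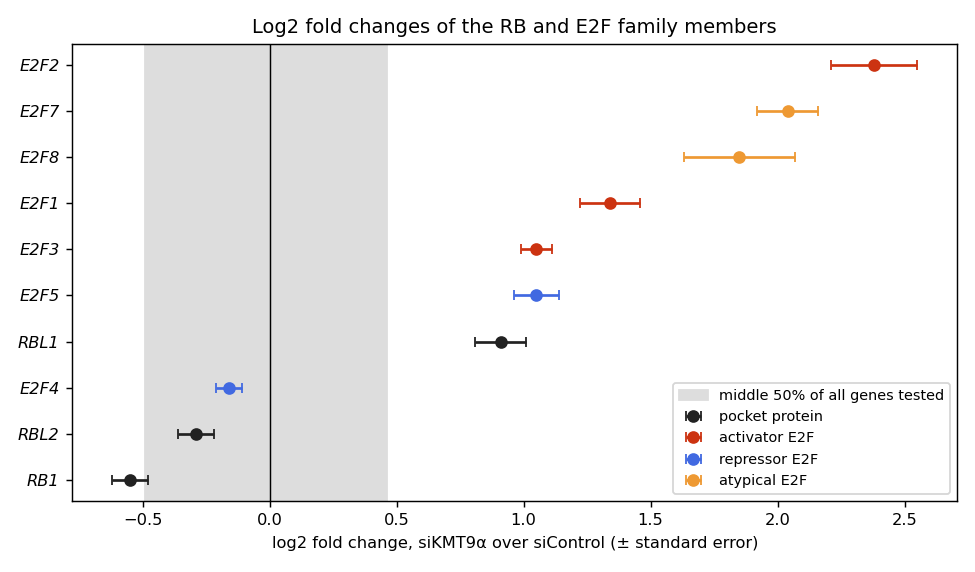
Log2 fold change of siKMT9α over siControl (x axis) for each member, with SE as whiskers and color by family; the grey band spans the quartiles of all 13877 genes tested, from -0.49 to 0.46. The 7 higher members lie above the band, RBL2 and E2F4 lie within it, and RB1 lies just below it.

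Levels of different genes were compared per length, as TMM-scaled CPM per kilobase of transcript. In siControl, E2F4 was by far the most abundant member, at 47.7 ± 2.78 CPM per kb (SD, n = 3). It was followed by RBL2 (9.66 ± 0.629) and RB1 (9.25 ± 0.298), whose samples overlapped, and then by E2F3 (6.53 ± 0.111) and E2F5 (5.16 ± 0.382). RBL1 (1.63 ± 0.0272) and E2F1 (1.55 ± 0.0822) overlapped, E2F7 stood at 0.581 ± 0.0667, and E2F8 (0.244 ± 0.078) and E2F2 (0.234 ± 0.0103) overlapped at the bottom of the order. In siKMT9α, E2F4 was again first, at 42.8 ± 1.95 CPM per kb, but E2F3 (13.5 ± 0.771) and E2F5 (10.7 ± 0.686) now stood above RBL2 (7.85 ± 0.674) and RB1 (6.27 ± 0.621). E2F1 (3.89 ± 0.427), RBL1 (3.06 ± 0.0968), E2F7 (2.4 ± 0.0807), E2F2 (1.23 ± 0.16) and E2F8 (0.861 ± 0.0638) followed, and no neighbors in this order overlapped.

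The make-up of each family shifted. The summed level of the 3 pocket proteins was 20.5 ± 0.634 CPM per kb in siControl and 17.2 ± 1.34 in siKMT9α. Within it, the share of RBL1 went from 7.94% ± 0.368 to 17.9% ± 0.933 and that of RB1 from 45.1% ± 1.65 to 36.4% ± 1.18, while the share of RBL2 overlapped between the groups (47% ± 1.93 and 45.7% ± 0.788). The ratio of RBL1 to RB1 per length was 0.176 ± 0.00561 in siControl and 0.491 ± 0.039 in siKMT9α. The activators together went from 8.32 ± 0.0825 to 18.6 ± 0.866 CPM per kb and the atypical pair from 0.826 ± 0.112 to 3.27 ± 0.0353. The sum of E2F4 and E2F5 overlapped between the groups, at 52.9 ± 2.41 and 53.4 ± 1.45 CPM per kb. Of the summed level of the 7 E2F members, which leaves out E2F6, E2F4 held 76.9% ± 1.31 in siControl and 56.7% ± 2.2 in siKMT9α, and the activators held 13.4% ± 0.417 and 24.8% ± 1.26. E2F6 stood at 22.6 ± 0.415 and 22.8 ± 0.709 CPM per kb, so that all of these shares would be lower with it in the sum. These sums and shares are descriptions with no test, and the ratio was chosen after the values were seen.

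**Figure D4:**
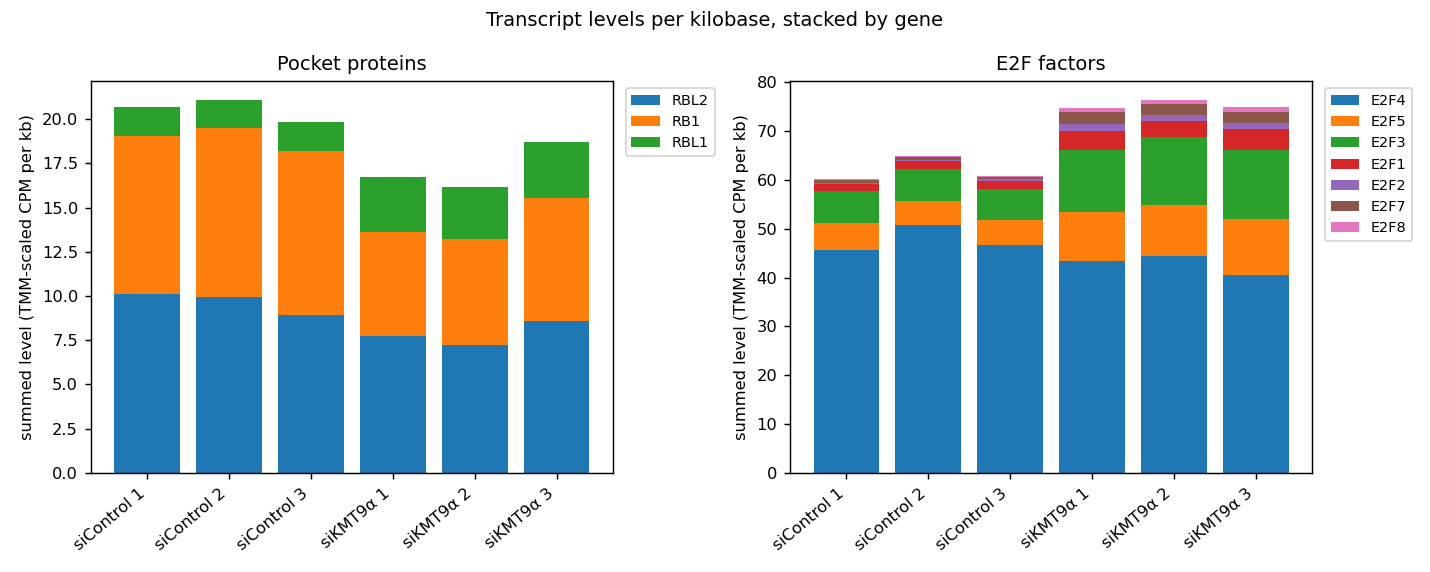
Summed level per sample (y axis, TMM-scaled CPM per kb, starting at 0) of the pocket proteins (left) and the E2F members (right), stacked by gene. The pocket protein sum is 19.9 to 21.1 in siControl and 16.2 to 18.7 in siKMT9α, the sum of the 7 E2F members, without E2F6, is 60.2 to 65 and 74.7 to 76.5, and the parts held by RBL1, E2F3 and E2F5 are wider in siKMT9α.

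Further genes of the pathway were read from lists by role. Over all genes tested the median log2 fold change was -0.01, with 37.1% of genes called higher and 38.5% called lower. Values in parentheses are log2 fold changes with their adjusted p. The remaining E2F and DP genes moved little. E2F6, a repressor that works without pocket proteins, stood at 72.8 ± 1.34 and 73.5 ± 2.29 CPM (adjusted p = 0.856), and the DP partner TFDP1 at 68.0 ± 2.64 and 71.2 ± 3.08 CPM (adjusted p = 0.282). TFDP2 fell from 17.1 ± 1.97 to 12.7 ± 0.942 CPM (-0.42, adjusted p = 0.000762), and TFDP3 was at 0 in all samples.

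Of the 10 kinases and cyclins that phosphorylate pocket proteins, 5 rose and 4 fell, with a median of 0.29. CDK2, the kinase of cyclins E and A, rose from 10.8 ± 1.52 to 48.9 ± 2.6 CPM (2.18, adjusted p = 2.47e-14), and its partner CCNA2 rose by 1.57 (adjusted p = 2.27e-12). The more abundant CDK4 (352.4 to 278.0 CPM, -0.34, adjusted p = 9.39e-06) and CDK6 (162.3 to 118.2 CPM, -0.46, adjusted p = 2.31e-07) fell. The D-type cyclins moved in different directions. CCND1 rose from 235.4 ± 13 to 494.8 ± 16.5 CPM (1.07, adjusted p = 4.26e-13), while CCND2 (2.3 to 1.22 CPM, -0.85, adjusted p = 0.00452) and CCND3 (109.2 to 79.4 CPM, -0.46, adjusted p = 7.59e-08) fell. Of the 7 inhibitors of these kinases, 3 fell and none of the tested 5 rose. The scarce CDKN2C (p18, an inhibitor of CDK4 and CDK6) fell from 3.03 to 1.38 CPM (-1.12, adjusted p = 3.22e-05). CDKN2D (p19), also scarce, fell from 4.48 to 3.01 CPM (-0.58, adjusted p = 0.00375). CDKN1A, the most abundant of the 7, stood at 575.7 and 591.0 CPM (adjusted p = 0.511). The summed level of the 7 overlapped, at 695.1 to 736.1 CPM in siControl and 682.8 to 733.4 CPM in siKMT9α. CDKN2A and CDKN2B had 0 counts in all 6 samples.

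Of 9 genes of the MuvB core and its activators, which form DREAM with RBL1 or RBL2 and the activating MMB complex with MYBL2, 6 rose and 2 fell (median 0.15). The mitotic activators FOXM1 (11.2 ± 1.36 to 45.5 ± 1.61 CPM, log2 fold change 2.03, adjusted p = 2.58e-14) and MYBL2 (5.75 ± 0.52 to 21.1 ± 1.02 CPM, log2 fold change 1.87, adjusted p = 1.57e-12) rose most. Of the core subunits, LIN37 (-1.56, adjusted p = 8.79e-12) and LIN52 (-0.94, adjusted p = 3.68e-08) fell, LIN9 (1.36, adjusted p = 1.21e-10) and RBBP4 (0.15, adjusted p = 0.0145) rose, and LIN54 changed by 0.08 (adjusted p = 0.363). Of 13 corepressors and chromatin partners of pocket proteins, 11 rose and 0 fell (median 0.56), with SMARCA4 (1.26, adjusted p = 1.72e-08) and the H3K9 methyltransferase SUV39H1 (1.11, adjusted p = 3.66e-10) rising most.

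Of 31 E2F targets of G1/S, 26 rose and 2 fell, with a median log2 fold change of 0.65. The replication factor MCM10 rose from 7.24 ± 0.78 to 36.9 ± 1.41 CPM (2.35, adjusted p = 8.26e-15). MCM6, a subunit of the replicative helicase, fell (-0.81, adjusted p = 1.04e-10), as did UHRF1 (-0.74, adjusted p = 2.05e-06). All 24 genes listed as DREAM and CHR targets of G2/M rose, with a median of 1.77. They were led by the topoisomerase TOP2A (23.0 ± 2.55 to 154.1 ± 1.77 CPM, log2 fold change 2.74, adjusted p = 2.05e-17) and the mitotic kinase PLK1 (2.83 ± 0.249 to 18.8 ± 0.892 CPM, log2 fold change 2.73, adjusted p = 4.99e-14). E2F letters stood in a promoter window of 14 of the 26 G1/S genes that had one, and CHR letters in 14 of 19 G2/M genes. The genes were listed as known E2F targets or known DREAM and CHR targets, so these counts are not a test of the motifs. Of all tested genes with a window, 6.48% held E2F letters, and of all RefSeq windows 16.4% held CHR letters. Across all 668 tested genes with E2F letters in a window, 41.9% were higher and 34.4% lower, with a median of 0.04, and across all 10314 tested genes with a window 37.7% were higher and 38.5% lower.

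Of 8 ubiquitin ligase parts and regulators that act on E2F or RB pathway factors, 6 rose and 2 fell (median 0.61). FBXO5 (EMI1, an inhibitor of the anaphase-promoting complex) rose by 1.21 (adjusted p = 7.57e-10) and CCNF (cyclin F) by 1.08 (adjusted p = 5.07e-07), and FZR1 (-0.26, adjusted p = 0.0195) and TRIM28 (-0.19, adjusted p = 0.001) fell. Of 8 apoptosis genes known as E2F1 targets, 7 were tested, of which 2 rose and 4 fell (median -0.85). The genes that rose were BBC3 (PUMA, 0.72, adjusted p = 5.98e-08) and BCL2L11 (BIM, 0.31, adjusted p = 0.00105), both of which encode BH3-only proteins that promote cell death. PMAIP1 (NOXA), a further gene of this kind in the list, fell from 95.7 ± 1.02 to 24.1 ± 2.96 CPM (-1.98, adjusted p = 3.87e-15).

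**Figure D5:**
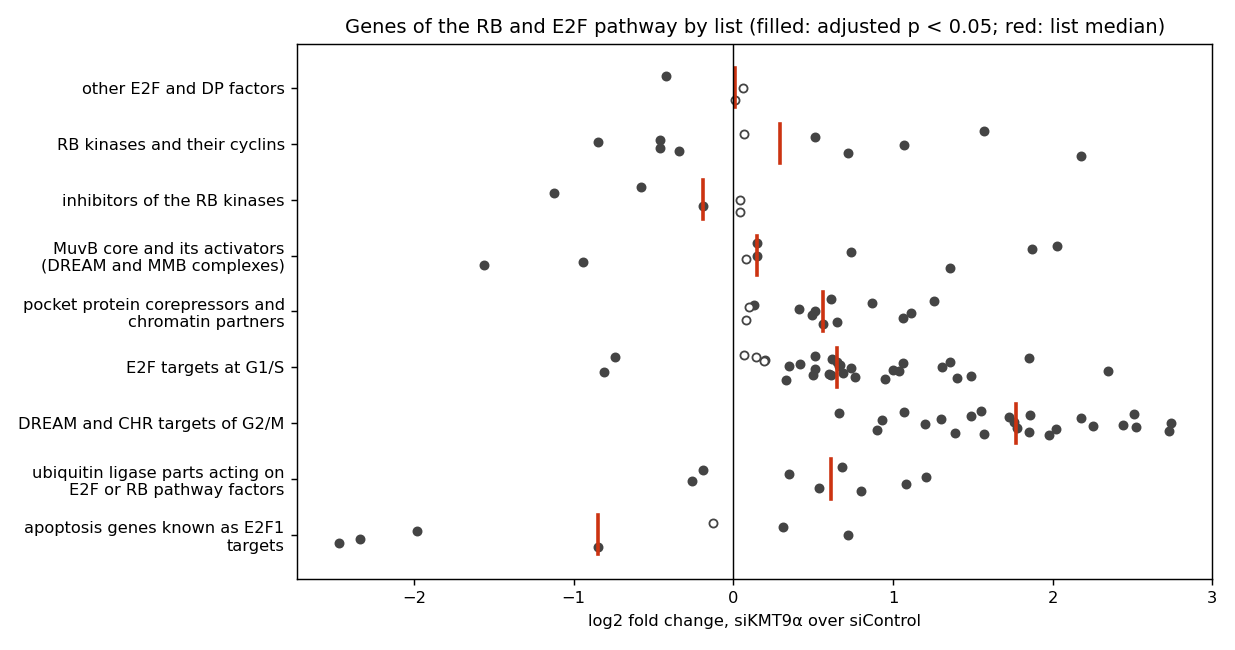
Log2 fold change of siKMT9α over siControl (x axis) for each tested gene of 9 pathway lists (rows); filled points had an adjusted p under 0.05, open points did not, and red bars are list medians. The G2/M targets all lie to the right of 0 with a median of 1.77, the G1/S targets have a median of 0.65, and the apoptosis genes have a median of -0.85.

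The 7-mer ACATTCA, which pairs with guide bases 2 to 8 of the siRNA against KMT9α, was searched in annotated 3′ UTRs. It was held by 12.3% of the 12257 tested genes with a 3′ UTR, of which 29.6% were higher and 50.8% lower (median -0.21), against 38.7% and 37.1% of genes without it (median 0.01). These sets were not matched for 3′ UTR length or base content, and an effect of the seed was not tested. The 7-mer was not found in RB1, RBL1, RBL2, E2F1, E2F2, E2F3, E2F4, E2F7 or E2F8. E2F5 held 1 site or 0 sites, depending on how its annotated transcript was matched: 1 in the transcript nearest in start, end and length, and 0 in the transcript nearest in length alone. No annotated transcript matched the deposited lengths of E2F5 and RBL1 closely, so for these genes the search is less certain.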

How the data were processed

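RNA-Seq was analysed for 3 siControl and 3 siKMT9α samples of A549 cells. Reads were mapped by the authors (STAR, genome build hg19) and assigned to RefSeq transcripts (HOMER), and the deposited table holds estimated counts without normalization, of which 36.4% were not whole. The authors' columns of fold changes, p-values and adjusted p-values from their edgeR comparison were not used. Library type and strand use are not given in the sources used here. Transcript lengths were the authors' deposited lengths.

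Of 38767 rows, 1182 had no symbol and counts and were left out, and 1 transcript per symbol, that with most counts over all samples, was kept. Estimated counts were rounded and tested with edgeR 4.0.16 (R 4.3.3; TMM, filterByExpr, two-sided quasi-likelihood F test, Benjamini-Hochberg adjustment over 13877 genes). The SE is the size of the log2 fold change divided by the square root of F. Alternatives included DESeq2 1.42.0. The fit was tested on simulated data. Depth was 13740097 to 19832396 counts per sample, and the number of counts limits the precision of the scarce members.

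Exon numbers, GC content, 3′ UTRs and overlaps came from a GRCh37 annotation (GENCODE), using the transcript of the same symbol nearest to the deposited one in start, end and length. This match replaced one on length alone after results had been seen, because the latter gave RBL1 a much shorter transcript. It changed the E2F5 transcript and its seed search, and both versions are given. GC content was known for 93.1% of genes tested.

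The members and gene lists were chosen with earlier results of these data known. Named from each list were the 2 genes that rose most and the 2 that fell most with an adjusted p under 0.05, and all genes of lists of 4 or fewer. CCND1, CDK4, CDK6, CDKN1A, LIN9, RBBP4, LIN54 and PMAIP1 were named in addition, after their values were seen. Some genes that this rule would name are not reported here.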

Additional observations from a re-analysis of the deposited data

How the results depend on the processing

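Each member was refitted under 17 alternatives, of which the doubled counts and the transcript match by length alone were chosen after seeing the data. No member changed direction, and all kept an adjusted p under 0.05 in all 17 except E2F4, which kept it in 12. E2F4 changed by -0.02 with the GC and length offset, with or without the replicate block and under either transcript match, by -0.10 without siControl replicate 2 and by -0.12 without siKMT9α replicate 3. E2F5 changed by 0.95 to 1.26 over the alternatives, with the highest value when GC content came from the transcript nearest in length alone. RBL2 changed by -0.49 to -0.23. With the GC and length offset, E2F3 changed by 0.79 in place of 1.05, and E2F7 by 1.78 in place of 2.04. The counts of the gene lists were not repeated with the GC and length offset, so small changes in the lists were checked less fully than the members.

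Members past the study's threshold numbered 5, but 8 with no filter and 3 with the replicate block, all 3 higher. Members lower past it numbered 0, but 1 with DESeq2, with no filter and with the GC and length offset with or without the replicate block, and 0 to 1 when single samples were left out (1 without siKMT9α replicate 3). Lower ubiquitin ligase parts numbered 2, but 1 with DESeq2. They numbered 1 to 2 when single samples were left out (1 without siControl replicate 1 or siKMT9α replicate 3). Higher genes of the MuvB list numbered 6, but 4 with library size alone. They numbered 5 without siControl replicate 2, siControl replicate 3 or siKMT9α replicate 2. All genes past the study's threshold numbered 3357, but 6070 with no filter. The cause was not tested. Library size alone moved the median of all genes from -0.01 to -0.12, the genes higher from 5150 to 4359 and those lower from 5342 to 6212, and the sum of the 7 E2F members in siKMT9α from 75.3 to 72.6 CPM per kb.

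Replicate numbers did not pair the samples (correlations of same-numbered deviations -0.0788, 0.022 and -0.0802), and the replicate block changed no member's call at an adjusted p under 0.05. Depth limits E2F8 most, at 13.5 to 66 estimated counts per sample.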
